A study of Drosophila melanogaster with 2 samples.

Results

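The genes described here are 5 regulators of growth and translation in Drosophila melanogaster, Lk6, larp, Thor, S6k and Tor, out of 13968 protein-coding genes on the main chromosomes. They were chosen from the deposited peak lists themselves, by which lists hold or lack a summit in each gene and by the signal values there, so those values are given as a description with no test. Peaks were assigned to a gene when the summit lay in the annotated span or within 1 kb upstream of it. Tor is the target of rapamycin gene, which the annotation lists as mTor.

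The 5 gene products meet at the start of translation. The Tor kinase is the catalytic core of the TOR complexes, which pass on nutrient and insulin signals. In its active state it promotes growth through S6k, the kinase of ribosomal protein S6, and it phosphorylates Thor, the fly 4E-binding protein, which otherwise holds the cap-binding factor eIF4E and represses translation. Lk6 is the fly counterpart of the mammalian Mnk kinases and phosphorylates eIF4E. larp encodes an RNA-binding protein of the La-related family whose mammalian relative binds mRNAs of the translation machinery downstream of TOR.

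The data are chromatin immunoprecipitation followed by sequencing (ChIP-seq) of a fusion of the basic helix-loop-helix factor dimm with eGFP. Chromatin of whole transgenic embryos of the dimm-GFP strain, aged 0 to 24 hours, was sonicated and precipitated through the GFP tag. There is 1 group of 2 biological replicates, with no second condition, and no untagged embryos are used here. The embryos mix all tissues, so the cells in which a site was bound are not known. dimm is a regulator of peptide-secreting neuroendocrine cells. The files hold peaks and not reads, so the depth is unknown. With 2 replicates of 1 group no comparison could be tested, and each replicate's value is given. Each list comes in a ranked form, with 139701 candidates on the main chromosomes for both replicates together, and a thresholded form, whose members reached a −log10 irreproducible discovery rate (IDR) of at least 2. A high −log10 IDR means that a candidate ranks both high and alike in the 2 sets of peaks compared. The sets behind each list are not named in the labels.

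No member had a summit in the list that the authors marked conservative, while 11.2% of protein-coding genes did. Each replicate's own thresholded list also had 0 members, beside 8.21% of protein-coding genes for replicate 1 and 7.8% for replicate 2. The list not marked conservative held 1 member, Thor, beside 11.6% of genes. Against this stood the ranked list, where Lk6 and larp each held a candidate of −log10 IDR at least 2 that the conservative list leaves out. Of all protein-coding genes, 0.265% held such a left-out candidate. These shares are given beside the members' counts only, since the lists chose the members.

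The Lk6 site was among the strongest candidates of the whole experiment. Lk6 (FBgn0017581) lies on the minus strand of 3R, at chr3R:11750931-11764457 on dm6, and has 2 annotated transcripts with separate start sites (TSSs). The site, chr3R:11760929-11761168, had a deposited signal of 677 and ranked 12 of 139701 candidates, with a −log10 IDR of 5, the highest value in the list. In replicate 1's own ranked list its signal was 359 (rank 9 of 106765) and in replicate 2's it was 317 (rank 13 of 113898), with a −log10 IDR of 5 in both. The summits of the replicates lay 5 bp apart. Both values stood far above the medians of the replicates' thresholded lists, 59.6 and 62.2, yet neither thresholded list holds the site.

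The Lk6 summit lay 969 bp upstream of the TSS of the shorter transcript, Lk6-RB, and inside an intron of the longer one, Lk6-RA, whose own TSS is 3409 bp away. It was therefore outside the 500 bp used for promoters. The TSSs themselves held weak candidates, of 30.0 at Lk6-RA (89 bp downstream) and 21.2 at Lk6-RB (214 bp downstream). The 11 other candidates in the gene had signals between 3.36 and 38.6, so the strongest was 17.5 times the next one. Over the 10764 protein-coding genes with at least 2 candidates the median of this ratio was 1.34, and 0.465% had a higher ratio than Lk6. The nearest summit of the conservative list lay 19273 bp away.

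The Lk6 summit with 100 bp on each side is shown because the site is missing from all thresholded lists and would otherwise not be seen. Capitals mark matches to the E-box CANNTG, which basic helix-loop-helix proteins bind, and to GTAAACA, the core of the site bound by forkhead factors such as foxo. The strand is the plus strand of the Release 6 genome, chr3R:11760948-11761148, and all of it is intronic.
Lk6 site: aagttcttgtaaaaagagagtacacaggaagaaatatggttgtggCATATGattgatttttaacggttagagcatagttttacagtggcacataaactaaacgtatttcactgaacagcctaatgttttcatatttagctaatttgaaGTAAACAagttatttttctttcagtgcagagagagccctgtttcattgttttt
The E-box here, CATATG, ended 50 bp from the summit and GTAAACA began 48 bp on its other side, so both lay only partly within 50 bp of the summit, where none of the 9 motifs searched had a full match.

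The larp site was the other strong candidate left out of the lists. larp (FBgn0261618) lies on the minus strand at chr3R:28318162-28336440 and has 7 annotated transcripts with 6 TSSs. The site, chr3R:28326507-28326692, had a signal of 446 and ranked 33, again with a −log10 IDR of 5. Its signal was 206 in replicate 1 (rank 51) and 241 in replicate 2 (rank 28), with a −log10 IDR of 5 in each replicate's ranked list and summits 33 bp apart. As at Lk6, both replicates had the site far above the median of their lists and neither thresholded list holds it.

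Unlike that of Lk6, the larp summit was promoter-proximal, 342 bp upstream of the TSS of larp-RA. It lay in an intron of the 5 transcripts that start farther upstream. The 21 other candidates in larp had signals from 2.69 to 44.9, so the strongest was 9.93 times the next one, and 1.29% of genes with at least 2 candidates had a higher ratio. The upstream end of the gene, at larp-RD, held a candidate of 43.4 with its summit 175 bp upstream. This summit was also in the span or upstream kilobase of the antisense RNA gene asRNA:CR46104. The TSS of larp-RG and larp-RH had one of 34.0 with its summit 158 bp upstream. Of the 6 TSSs, the neighbouring ones of larp-RA and larp-RE were thus next to the strong site.

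The same window of larp, chr3R:28326506-28326706 on the plus strand, is shown for comparison with that of Lk6, with E-box and GTAAACA matches in capitals.
larp site: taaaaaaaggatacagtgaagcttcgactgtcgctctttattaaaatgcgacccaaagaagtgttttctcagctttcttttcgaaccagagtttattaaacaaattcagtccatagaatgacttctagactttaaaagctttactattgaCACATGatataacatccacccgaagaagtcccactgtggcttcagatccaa
It held 1 E-box, CACATG, that began 50 bp from the summit, and no GTAAACA. The GC content of the window was 36.8%, and that of the Lk6 window was 32.3%, both within the middle range of the 1739 conservative regions (quartiles 31.3% and 40.3%). Both peaks were narrower than the widest peak of 304 bp, with widths of 240 bp at Lk6 and 186 bp at larp. Strong peaks in the list were generally narrow: all 47 conservative peaks with a signal of at least 400 were narrower than 304 bp, against 11.2% of the whole list.

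**Figure D1:**
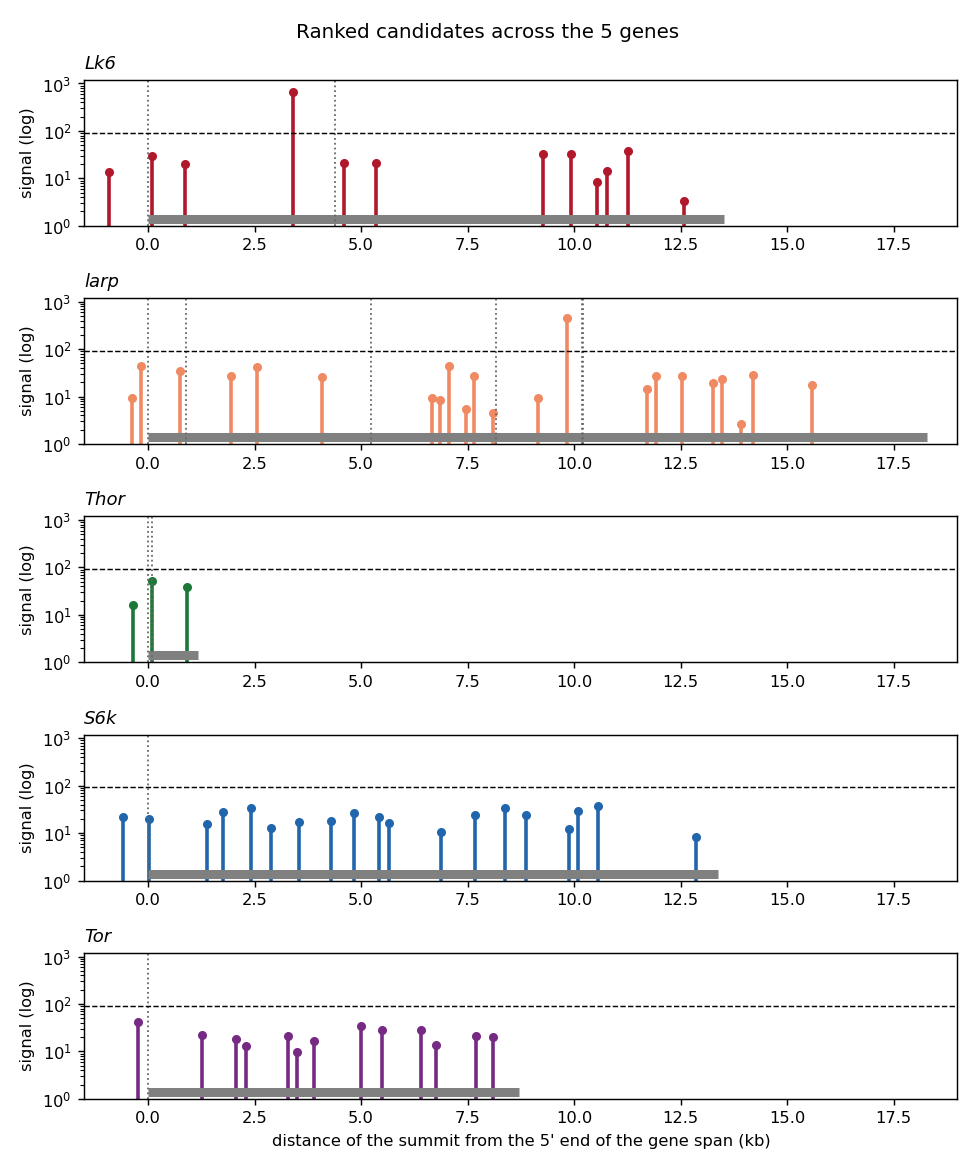
Signal (log axis) of every ranked candidate by distance from the 5' end of each gene in kb, one panel per gene; grey bars mark the gene span, dotted lines the annotated TSSs and the dashed line the median signal of the conservative list, 91.6. Lk6 and larp each have 1 candidate above the dashed line, at 677 and 446, and every candidate of Thor, S6k and Tor lies below it.

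**Figure D2:**
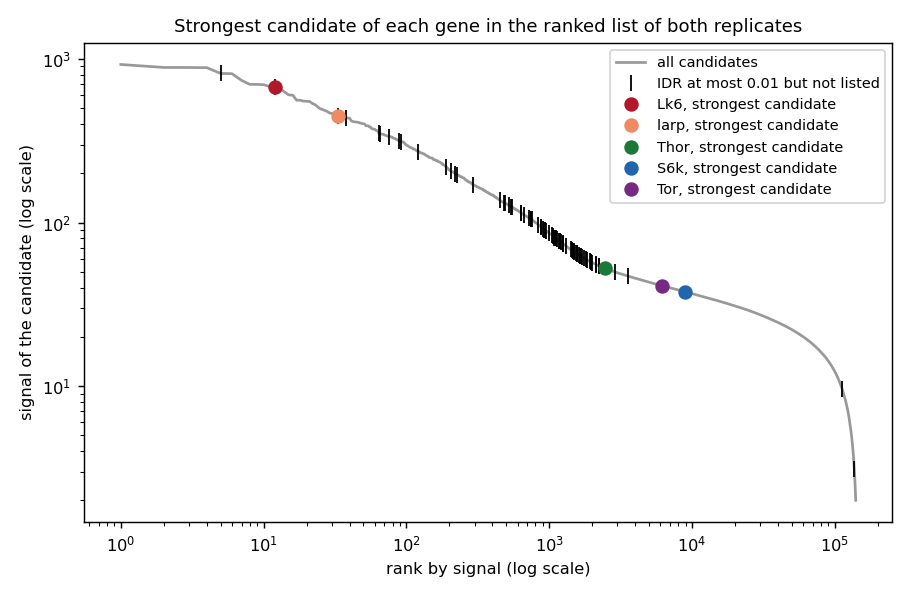
Signal against rank (both log axes) for all candidates of the ranked list of both replicates, with the strongest candidate of each gene as a coloured point and ticks for the candidates that reached a −log10 IDR of 2 but are not in the conservative list. Lk6 sits at rank 12 and larp at rank 33, while Thor, Tor and S6k lie at ranks 2452, 6146 and 8846.

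Lk6 and larp belonged to a small set of left-out candidates. On the main chromosomes 1848 candidates reached a −log10 IDR of at least 2, and 78 of them (4.22%) are not in the conservative list. These 78 had a median signal of 80.9 and a highest value of 816, at ush, a zinc-finger factor gene. By signal the Lk6 site was number 2 and the larp site number 3 of the 78, and all 78 are also missing from the list not marked conservative. Number 4 (438, on X) lay at an annotated R2 element and number 10 (272, on X) at a 28S rRNA pseudogene. Others lay at R1, HeT-A or gypsy elements or had no gene within reach. Many lay at genes that are not repeats, such as trx, Alh and Sin3A, and some loci, such as tara and Kdm2, held several. Of the 15 strongest candidates of the experiment 2 were left out, those of ush and Lk6, and of the 50 strongest 4 were. The submitters' file notes name 1 more input file for the thresholded lists than for the ranked lists. What it holds is not given in the sources used here, and its part in leaving out Lk6 and larp was not tested.

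Had they been listed, the Lk6 signal would have been exceeded by 10 of the 1739 merged conservative regions and the larp signal by 30. The listed promoter regions next to Lk6 in signal were those of Tcs5 and CHMP2B (679) and of CG18549 (660). Those next to larp were those of CG15717 and MFS10 (463) and of CG1635 with an antisense RNA (439). This is a likeness of 1 signal value over both replicates together.

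The strongest candidate of Thor was weak, lay at a TSS and stood on the edge of the threshold. Thor (FBgn0261560) is a short gene on the plus strand, at chr2L:3478434-3479612, with 2 TSSs 88 bp apart. Its strongest candidate, chr2L:3478371-3478674, had a signal of 52.7 (rank 2452) and a summit 1 bp downstream of the Thor-RB start, in the 5' UTR. Its −log10 IDR was 1.62 in the conservative ranked list, below the threshold of 2, and 2.10 in the other ranked list, just above it. In the replicates' own ranked lists the signal was 21.3 (rank 7865, −log10 IDR 0.0489) and 32.0 (rank 2070, −log10 IDR 1.20), and the summits lay 16 bp apart. Both replicates thus placed a candidate at the same point, and neither reached the threshold alone. Among conservative regions 1.84% were weaker, and the listed promoter regions next to it in signal were those of CG5004 (53.2) and of a group of long noncoding RNA genes (52.6).

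A second Thor candidate, in the coding part 816 bp downstream of the TSS of Thor-RB, had a signal of 38.1, and another, upstream, had 15.8 with no overlapping candidate in either replicate's own list. Next to the threshold on its lower side, the second candidate of Lk6 had a −log10 IDR of 1.75 in the other ranked list, at a signal of 38.6. In the conservative ranked list this Lk6 candidate had only 0.129. The replicates' own ranked lists gave it 0.258 and 0.636, with summits 184 bp apart. A stretch of 27 bases at the Thor summit, chr2L:3478519-3478545 on the plus strand, is shown because it holds the GTAAACA, in capitals, found within 50 bp of a member's strongest summit. Thor is a known target gene of the forkhead factor foxo.
Thor site: cgcagtttgtGTAAACAatcaaattgt
GTAAACA began 6 bp from the Thor summit. No E-box lay within 100 bp of it on either side.

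S6k and Tor had candidates but no summit in any thresholded list. S6k (FBgn0283472; chr3L:5797549-5810931, minus strand) had 19 candidates with signals from 8.09 to 37.8. The strongest lay in the 3' UTR, 10560 bp from the TSS, at 16.9 in replicate 1 and 15.5 in replicate 2. Its TSS had a candidate of 20.3 with the summit 23 bp downstream, also in the span or upstream kilobase of the gene kri. Only replicate 1's own list had an overlapping candidate (14.4). No S6k candidate reached a −log10 IDR above 0.598.

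Tor (FBgn0021796; chr2L:13004480-13013197, plus strand) had 13 candidates from 9.93 to 41.1. The strongest lay 227 bp upstream of the TSS. It was also in the span or upstream kilobase of Vha68-1, a gene for a subunit of the vacuolar proton pump. Replicate 1's own list had 31.6 there (rank 1926 of 106765) and replicate 2's had 11.3 (rank 60323 of 113898). Its −log10 IDR was 0.153. The other 12 Tor candidates had summits in coding exons, and the highest −log10 IDR among the 13 was 0.521.

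The strongest candidates of S6k and Tor lay within the middle range of protein-coding genes in the ranked list. The median strongest candidate over the 11823 genes with any was 33.3 (quartiles 25.6 and 43.9). Of all 13968 genes, 31.9% had a stronger candidate than S6k, 25.4% than Tor, 13.8% than Thor, 0.322% than larp and 0.115% than Lk6. The spans ran from 1179 bp for Thor to 18279 bp for larp, with a median of 2164.5 bp over all genes. The members held 0.826 (Lk6) to 1.38 (Thor) candidates per kb of span and upstream window, beside 1.03 per kb over all genes.

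**Figure D3:**
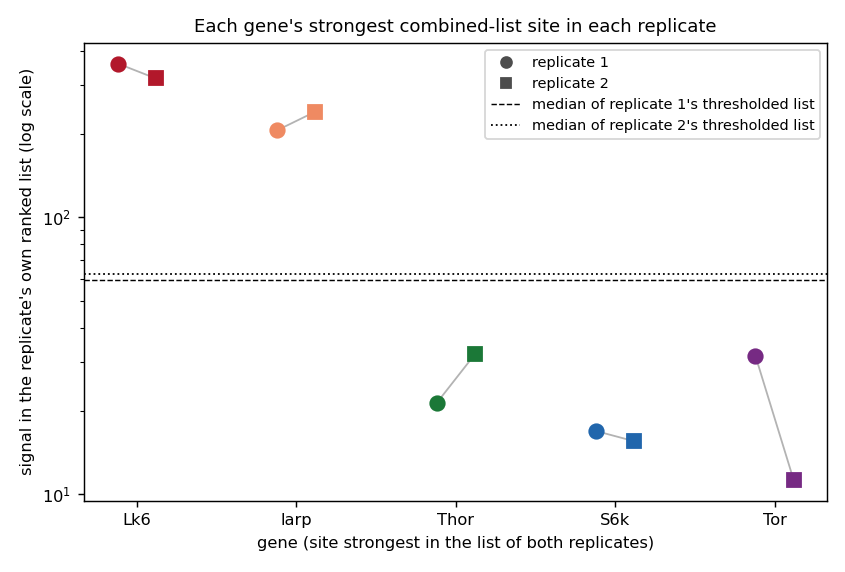
Signal (log axis) in the ranked list of replicate 1 (circles) and of replicate 2 (squares) at the site of each gene that was strongest in the list of both replicates, with lines at the medians of the replicates' thresholded lists, 59.6 and 62.2. Lk6 and larp lie above both lines in both replicates, the others below both, and the values of Tor are 31.6 and 11.3.

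By signal in the list of both replicates the order of the genes was Lk6, larp, Thor, Tor and S6k. Each gene's own strongest candidate was also taken from each replicate's list, wherever in the gene it lay. For Lk6, larp and Thor it was the same site in both replicates. For S6k and Tor it was the same site in replicate 1 alone. In replicate 2 the strongest candidate of S6k was an intronic one of 19.1 and that of Tor was one of 19.6 in a coding exon. In replicate 1 the order was Lk6 (359), larp (206), Tor (31.6), Thor (21.3) and S6k (16.9). In replicate 2 it was Lk6 (317), larp (241), Thor (32.0), Tor (19.6) and S6k (19.1). Lk6 and larp thus came first in both, and Thor and Tor changed places. The listed promoter regions next to both S6k and Tor in signal were those of CG10301 (47.1) and of Wnt6 (25.0).

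Apart from the left-out sites, the members held 67 candidates with a median signal of 21.2, beside 18.0 for all candidates, and none had a −log10 IDR above 1.62 in the conservative ranked list. Of all 69 candidates, 41 overlapped a candidate in both replicates' own ranked lists, 47 one in replicate 1's and 58 one in replicate 2's. These are 59.4%, 68.1% and 84.1% of the 69, beside 54.2%, 71.9% and 72.8% of all 139701 ranked candidates. By gene the candidates seen in both were 8 of 12 at Lk6, 15 of 22 at larp, 2 of 3 at Thor, 11 of 19 at S6k and 5 of 13 at Tor. Candidates were not merged, and neighbouring ones could overlap the same replicate candidate, so these are not counts of separate sites. Summits lay in coding exons (30), introns (26), upstream windows (6), 5' UTRs (4) and 3' UTRs (3). The 11 candidates within 500 bp of a TSS of their gene had a median signal of 30.0 (range 4.48 to 446). The 58 farther away had one of 21.1 (range 2.69 to 677). Neither this split nor the feature counts are given over all ranked candidates, so no preference of the members can be read from them.

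**Figure D4:**
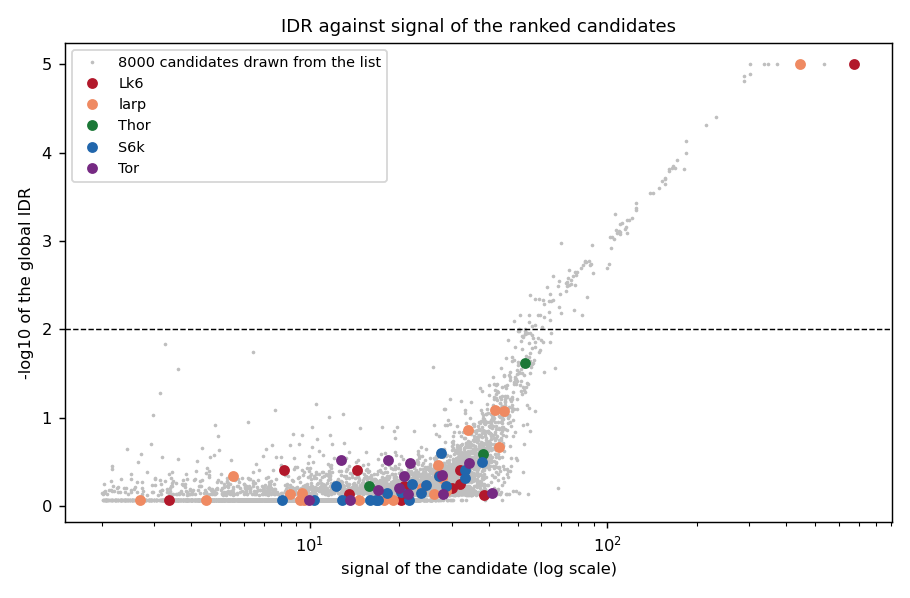
−log10 of the global IDR against signal (log axis) for the candidates of the 5 genes (coloured) and a draw from the whole ranked list (grey), with the threshold of 2 dashed. The strongest candidates of Lk6 and larp lie at the upper limit of 5 and that of Thor at 1.62, just under the threshold. Their other candidates lie lower, and all those of S6k and Tor lie at or under 0.598.

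E-boxes stood at some of the members' strongest sites. Within 50 bp of the summit CANNTG occurred at 1 of the 5 (CAGTTG, at S6k), while 33.2% of the 1739 conservative regions held it. Within 100 bp it occurred at 3 of 5 (Lk6, larp and S6k), and 59.3% of conservative regions held it. The class CATATG, seen within 100 bp at Lk6, stood in 7.30% of conservative regions in that wider window. GTAAACA stood in 2.59% of conservative regions within 50 bp, as at Thor, and in 87 of the 1739 within 100 bp, as at Thor and Lk6. CGATA occurred at Thor within 50 bp (11.5% of conservative regions) and also at Tor within 100 bp (22.7%). GAGAG, the core of the GAGA factor site, occurred at S6k within 50 bp (8.80%) and also at Lk6 within 100 bp (23.6%). The remaining motifs had no match at any member in the wider window. There CAGCTG was held by 8.74% of conservative regions and the E-box CACGTG by 1.67%. TATCGATA was held by 1.73% and the motif GGTCACACT by 0.748%. Both strands were searched, the 3 palindromic E-boxes named here are also counted under CANNTG, and TATCGATA is also counted under CGATA.

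The wider pathway around the members was partly listed. The 64 genes of insulin signalling, the TOR complexes and translation control were chosen with earlier results of these data known. Of these 64, 15 (23.4%) had a conservative summit, beside 11.2% of all protein-coding genes, and these shares were not tested. The pathway genes are longer, with a median span of 4247 bp against 2164.5 bp, and the part of length in this difference was not tested. Their strongest ranked candidate had a median signal of 38.1, beside 33.3 over all genes. The median signal of the strongest region in these 15 genes was 99.8, beside 104 for all 1558 genes with a conservative summit. In both replicates' own lists as well were 8 of the 15, a count given without its share over all genes. The list not marked conservative held 12 of the 64, beside 11.6% of all protein-coding genes.

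Among insulin inputs 4 of 16 genes had a summit. InR, the insulin receptor gene, had an intronic region of 183 with 81.8 in replicate 1 and 111 in replicate 2. Pi3K21B, the adaptor subunit of PI3-kinase, had one of 106, 93 bp upstream of its TSS. Among the TOR complexes and their regulators 6 of 24 had one. They were led by alc, the beta subunit of AMP-activated kinase (327, in its upstream window and shared with CG44286 and CG8788), and Sesn, the sestrin that restrains TOR (282, upstream and shared with CG46429). Both also had regions in each replicate's list, with 152 and 173 for alc and 171 and 137 for Sesn. Wdr24, a subunit of the GATOR complex, had 140, shared with IntS11 and an antisense RNA, and chrb, which inhibits TOR signalling in hypoxia, had 99.0 in an intron. SNF4Agamma, the gamma subunit of AMP-activated kinase, had 75.7 and was in neither replicate's list, nor in the list not marked conservative.

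Among outputs 5 of 24 genes had a conservative summit. REPTOR, a transcription factor repressed by TOR, had an intronic region of 239 that was in replicate 2's list (125) and not in replicate 1's. The list not marked conservative held no summit in REPTOR. Mnt, a Max-binding repressor, had an intronic region of 110 that was also in replicate 2's list (60.1) and not in replicate 1's. rl, the fly ERK kinase, had one of 79.6 that was in neither replicate's list. pAbp, the poly(A)-binding protein gene, had 99.0, in an intron and in or within 1 kb upstream of a small nucleolar RNA gene. eIF4EHP, a cap-binding competitor of eIF4E, had a listed intronic region of 99.8. It also had a left-out candidate of 313 in its upstream window, shared with CG18428, with a −log10 IDR of 4.98. With eIF4A, the helicase of translation initiation, it was 1 of 2 pathway genes with a left-out candidate, while 0.265% of all protein-coding genes had one. That of eIF4A (56.8) also lay in or within 1 kb upstream of an annotated blood transposon fragment. No pathway gene had a candidate as strong as those of Lk6 and larp, the highest being the 327 of alc.

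**Figure D5:**
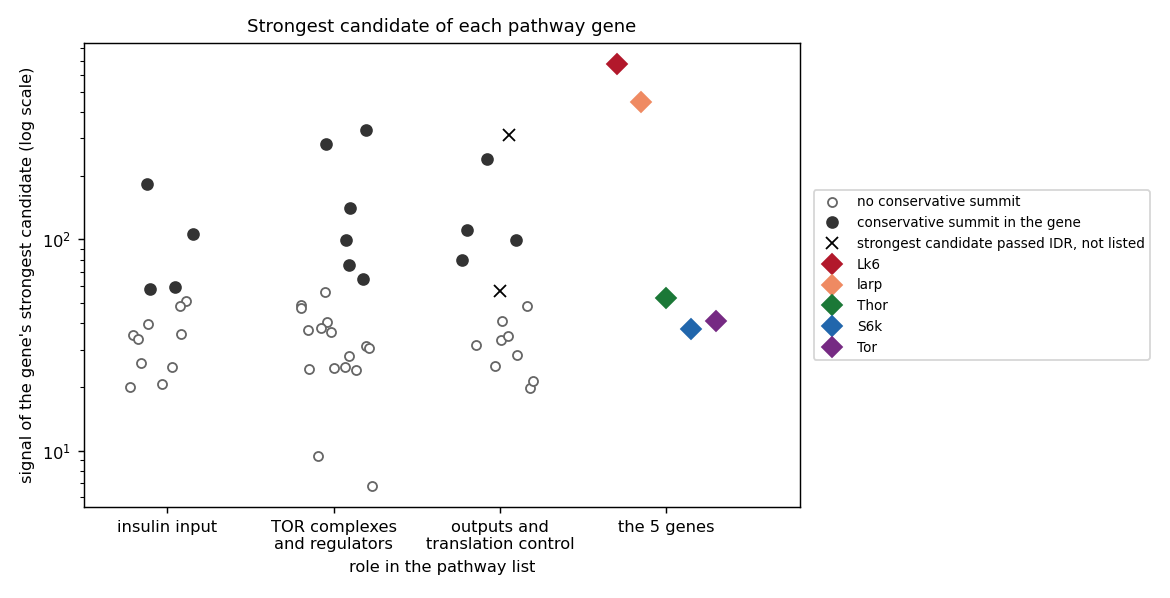
Signal (log axis) of the strongest ranked candidate of each of the 51 pathway genes with any candidate, by role, and of the 5 genes (diamonds); filled circles have a conservative summit, open circles have none, and crosses have a strongest candidate that passed the IDR threshold but is not listed. Lk6 (677) and larp (446) lie above all pathway genes, and Thor, Tor and S6k lie at the height of the open circles.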

How the data were processed

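The authors deposited 8 peak lists on build dm6, per the labels, as ranked and thresholded lists for each replicate and for both replicates together. The signal value of each peak is the authors' own, and no source used here gives its normalization, the aligner or the peak caller. For each ranked candidate the authors deposited a −log10 value of its global IDR, taken from the files' column layout. The further column used, the offset of the summit from the peak's start, is also deposited. Every thresholded list held only candidates with a −log10 IDR of at least 2 (IDR at most 0.01) in its ranked list.

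Peaks on the chromosome arms and on chromosomes 4, X and Y were analysed with Ensembl release 115 genes and the Release 6 genome, where 99.8% of 30618 annotated start codons read ATG. Peaks of thresholded lists that overlapped by at least 1 bp were merged for counts over genes, and candidates were not merged. Candidates were matched between lists by an overlap of at least 1 bp, taking the strongest. Signals were ranked within a list, and the replicates' values are set side by side as deposited, without rescaling. Motif windows reached 50 or 100 bp to each side of the summit. Python 3.11.15 with pandas 2.3.3 and numpy 2.4.6 was used, and the assignment of summits to genes was tested on simulated data. No test was run, since the members and lists, the 64 pathway genes included, were chosen with earlier results of these data known. All 5 genes were named, with genes sharing their sites, the 12 pathway genes with the highest conservative signal, those with a left-out candidate, and the listed promoter regions next to each member in signal. Coordinates are 1-based.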

Additional observations from a re-analysis of the deposited data

How the results depend on the processing

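The conservative list held 0 members with the annotated span alone, with upstream windows of 500 bp or 2 kb, within 500 bp of a TSS, in its stronger 50% and by any overlap of a peak, and each replicate's own list also held 0 under these settings. The list not marked conservative held 1, Thor. The left-out candidates were 2 and became 3, with Thor, at a −log10 IDR of at least 1.3 or in the other ranked list, and each replicate's own lists left out 2 (a choice made after the data had been seen). Thor's candidate is missing from the conservative list by the cut at 2, since its value in the conservative ranked list was 1.62. The list not marked conservative holds it. The 15 pathway genes in the conservative list became 6 with summits within 500 bp of a TSS. No share of all protein-coding genes is given for this setting, so the 6 of 64 are not comparable with the 11.2% of the main setting. With replicate 2 left out 9 of the 64 had a summit, beside 8.21% of all protein-coding genes. With replicate 1 left out 12 had one, beside 7.8%. The 2 pathway genes with a left-out candidate became 8 at the looser value of 1.3, also tried after the data had been seen. No share of all protein-coding genes is given at 1.3, so neither this rise nor that of the members can be set beside one. The lists cut at 2, so a candidate between 1.3 and 2 is missing from the conservative list by that cut. With 100 in place of 50 bp on each side of the summit the motifs matched rose from 0 to 4 at Lk6 and from 0 to 1 at both larp and Tor. With peaks unmerged, 3.54% of the conservative list was weaker than Thor's strongest candidate, in place of 1.84%, 1.55% than that of S6k and 1.60% than that of Tor, in place of 0.115% for both. Other planned settings moved no count by over 1.5 times. The planned overlap settings for matching conservative regions at the members to the replicates' own lists gave no value, since the members have no such region. No paired analysis was possible because there is 1 group. Depth is unknown, so weak candidates such as those of S6k and Tor cannot be weighed by it, and a gene without a listed site is not shown to be unbound.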
